A study of Caenorhabditis elegans with 2 samples.

Results

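The small subunit ribosomal protein genes are the protein-coding genes of Caenorhabditis elegans named rps- followed by a number, 31 of the 19973 protein-coding genes in the annotation. They run from rps-0 to rps-30. They were examined for occupancy by IRX-1-eGFP in chromatin immunoprecipitation with sequencing (ChIP-seq), a method that recovers and sequences the DNA bound by one protein. The worms were of strain OP536, genotype unc-119(tm4063) III; wgIs536, and stably express IRX-1 with a GFP-FLAG tag at its C-terminus. Hermaphrodite L1 larvae were starved after bleaching to synchronise them and collected 6 hours later, and the tagged protein was recovered from whole animals with an antibody against GFP. The series holds 1 group of 2 biological replicates and no second condition, so every value is a description of occupancy in these larvae, without a comparison between conditions. Signal from all cells of the larva is mixed, and no untagged strain or second tagged factor was analysed here.

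The small ribosomal subunit reads the messenger RNA. It consists of 1 ribosomal RNA and a set of proteins, most of them encoded by the rps genes, arranged in a head, a body and a platform around the decoding centre. The proteins are needed in matching amounts, and their genes are among the most actively transcribed in growing cells. IRX-1 is the worm protein of the Iroquois homeodomain family of transcription factors, known for its part in the synaptic remodelling of GABAergic motor neurons. Many worm genes lie in divergent pairs that share 1 upstream region. Many transcripts are also trans-spliced, so that the annotated start of a gene can lie downstream of the position where transcription begins.

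IRX-1-eGFP occupied the upstream regions of 27 of the 31 rps genes (87.1%, 95% Wilson interval 71.1 to 94.9%), against 9.6% of all protein-coding genes. When each summit was assigned only to the nearest protein-coding start, 13 rps genes (41.9%) were bound, against 6.83% of all protein-coding genes. In the first count and in all that follows, a gene was bound when the summit of a peak in the authors' optimal list lay between 1000 bp upstream and 200 bp downstream of its annotated start. The optimal list holds the 2445 highest-scoring of 28191 regions called on the pooled replicates, and the score is the authors' own peak score, for which no formula is given. The bound genes are rps-0, rps-1, rps-3, rps-4, rps-5, rps-6, rps-8, rps-10, rps-11, rps-12, rps-13, rps-14, rps-15, rps-17, rps-18, rps-19, rps-20, rps-21, rps-22, rps-23, rps-24, rps-25, rps-26, rps-27, rps-28, rps-29 and rps-30. The unbound genes are rps-2, rps-7, rps-9 and rps-16. The 27 highest summits fall in 27 distinct peaks.

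The DNA under 3 of the strongest peaks is shown first, as the 101 bases centred on the summit, written 5′ to 3′ on the strand of the rps gene and read from the RefSeq WBcel235 sequence, the assembly that ce11 names. The rps-1 region is chrIII:4475594-4475694 on the + strand, and that of rps-12 is chrIII:5679088-5679188 on the + strand. That of rps-23 is chrIV:12391282-12391382 on the - strand. Both the rps-1 and the rps-12 region carry no capitals because they hold none of the 7 words described next. In rps-23 the capitals mark the overlapping words ACGGTAACAC and ACACTCGTTT.
rps-1: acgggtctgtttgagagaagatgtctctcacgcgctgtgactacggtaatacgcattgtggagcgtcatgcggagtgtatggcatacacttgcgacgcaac
rps-12: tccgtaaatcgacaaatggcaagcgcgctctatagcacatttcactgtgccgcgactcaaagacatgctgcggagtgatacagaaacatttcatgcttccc
rps-23: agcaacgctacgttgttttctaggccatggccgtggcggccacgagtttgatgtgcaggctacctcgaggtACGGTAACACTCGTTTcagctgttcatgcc

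Several promoters of the members share 10-letter words at the summit. All 10-letter words within 50 bp of the 27 highest summits were counted on both strands. Those at 4 or more summits were grouped by the genes that held them, and groups contained in a larger group were dropped. Each word was sorted under the earlier in the alphabet of itself and its other strand, and the first from each remaining group gave the 7 words described here. A word was then written as its other strand where most of its genes carried that strand in the sense of the gene. Overlapping words at the same summits are neither listed nor marked by capitals. These words were picked from the members' own sequences after these were read, so their frequency among the members is no test. The word CTGAGTATTC lay at the summits of rps-0, rps-3, rps-20, rps-22 and rps-30, in each case on the strand of the rps gene. The summits of rps-0, rps-3, rps-22 and rps-30 are shown with the shared words in capitals, from chrIII:4754319-4754419 (- strand), chrIII:6206410-6206510 (+ strand), chrIII:1950364-1950464 (+ strand) and chrV:7776289-7776389 (+ strand). In rps-3 the first capitals are CGCAGCCAAT, and in rps-30 they are CGCTGCGAGA, the other strand of TCTCGCAGCG.
rps-0: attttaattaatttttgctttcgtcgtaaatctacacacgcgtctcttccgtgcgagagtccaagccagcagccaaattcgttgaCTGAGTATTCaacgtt
rps-3: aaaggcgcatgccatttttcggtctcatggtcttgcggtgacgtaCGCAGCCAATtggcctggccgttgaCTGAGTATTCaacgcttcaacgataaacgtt
rps-22: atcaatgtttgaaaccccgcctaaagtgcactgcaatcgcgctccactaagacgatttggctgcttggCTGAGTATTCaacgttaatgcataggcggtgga
rps-30: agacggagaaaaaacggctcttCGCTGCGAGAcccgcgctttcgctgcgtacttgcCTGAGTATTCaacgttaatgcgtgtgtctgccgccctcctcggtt

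CTGAGTATTC began 6 to 40 bp downstream of the summit in these 5 promoters. It started 283 bp upstream of the rps-0 start, 323 bp upstream of rps-3, 208 bp upstream of rps-20, 103 bp upstream of rps-22 and 233 bp upstream of rps-30. In all, these included, 13 of the 2445 optimal summits (0.532%) held it within 50 bp, as did 4 of the 25745 pooled summits below the optimal threshold. Over whole promoter windows it lay in those of 5 rps genes, 5 rpl genes (rpl-6, rpl-7A, rpl-13, rpl-32 and rpl-39, which encode large subunit proteins) and 47 of all protein-coding genes (0.235%). The windows of rps-30 and rpl-39 share sequence, since those genes are divergent neighbours.

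The other 6 words each lay at 4 bound summits. The sequences below show where they sit, from chrIV:11602250-11602350 (rps-11, + strand), chrIV:5947901-5948001 (rps-25, - strand), chrIV:385524-385624 (rps-24, + strand), chrIII:7189884-7189984 (rps-21, - strand), chrIII:7179795-7179895 (rps-14, - strand) and chrIII:6375140-6375240 (rps-13, - strand). The last is chrIV:7084912-7085012 (rps-4, - strand). Capitals again mark the shared words, and those of TGGGTCTCGC and TCTCGCAGCG overlap in rps-11 and rps-25.
rps-11: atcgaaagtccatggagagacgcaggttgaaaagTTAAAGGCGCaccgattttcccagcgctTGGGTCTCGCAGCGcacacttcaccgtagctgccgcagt
rps-25: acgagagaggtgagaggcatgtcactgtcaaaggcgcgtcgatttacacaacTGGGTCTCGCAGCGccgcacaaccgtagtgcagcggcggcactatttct
rps-24: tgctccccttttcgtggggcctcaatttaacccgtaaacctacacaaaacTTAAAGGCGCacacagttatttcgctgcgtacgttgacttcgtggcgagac
rps-21: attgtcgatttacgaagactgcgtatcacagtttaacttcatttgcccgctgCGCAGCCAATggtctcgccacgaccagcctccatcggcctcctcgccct
rps-14: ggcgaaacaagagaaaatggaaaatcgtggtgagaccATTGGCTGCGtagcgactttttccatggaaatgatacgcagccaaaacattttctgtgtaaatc
rps-13: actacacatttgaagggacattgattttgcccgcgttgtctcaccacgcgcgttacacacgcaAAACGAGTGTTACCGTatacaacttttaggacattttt
rps-4: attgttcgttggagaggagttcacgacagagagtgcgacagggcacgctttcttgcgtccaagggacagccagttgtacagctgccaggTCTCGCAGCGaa

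CGCAGCCAAT lay at rps-3, rps-14, rps-19 and rps-21, and at 7 optimal summits in all. It lay in the promoter windows of 4 rps genes and 2 rpl genes, rpl-13 and rpl-36, and in those of 29 of all protein-coding genes. TCTCGCAGCG lay at rps-4, rps-11, rps-25 and rps-30, and at 24 optimal summits in all (0.982%). TGGGTCTCGC, which overlaps it in rps-11 and rps-25, lay at rps-6, rps-11, rps-25 and rps-29, and at 20 optimal summits in all. In these 4 it began 2 to 12 bp downstream of the summit, on the strand of the gene. TTAAAGGCGC lay at rps-6, rps-11, rps-17 and rps-24 but is common elsewhere, in the windows of 721 protein-coding genes (3.61%). ACGGTAACAC lay at rps-10, rps-13, rps-17 and rps-23, and AAACGAGTGT at rps-10, rps-13, rps-23 and rps-29. Both overlap in rps-10, rps-13 and rps-23. They lay at 13 and 14 optimal summits in all. The windows of rpl genes held these words too. TCTCGCAGCG lay in the windows of 5 rps and 4 rpl genes. TTAAAGGCGC and TGGGTCTCGC each lay in those of 5 rps and 6 rpl genes. For ACGGTAACAC the counts were 5 rps and 5 rpl genes, and for AAACGAGTGT 6 and 6. Divergent rps and rpl neighbours share part of these windows. At least 1 of the 7 words was within 50 bp of 18 of the 27 summits, and more than 1 was at 10 of them. Of all optimal summits, these included, 87 (3.56%) held at least 1. The words were picked from the members' own summits, so the difference between these shares is no test.

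The sequence at the summits was mostly richer in G and C than that of regions below the threshold. The GC content of the 101 bases at the bound rps summits was 50.1 ± 8.0% (SD over 27 summits), against 45.5 ± 8.23% over all optimal summits and a mean of 35.0% over pooled summits below the threshold. It ranged from 27.7% at rps-18 to 61.4% at rps-29.

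Short motifs from a list, each searched on both strands, were found at some of the summits. ACGCAG lay within 50 bp of 10 of the 27 summits (37.0%), against 15.9% of all optimal summits and 2.87% of summits below the threshold. These were rps-3, rps-5, rps-10, rps-11, rps-14, rps-19, rps-20, rps-21, rps-24 and rps-30. The word overlaps CGCAGCCAAT where an A precedes it, as in rps-3. GAGAGA, the repeat bound by GAGA-type factors in flies, lay at rps-1, rps-5, rps-11 and rps-25, 4 of 27 (14.8%), against 26.5% of all optimal summits. ACATGT, which is its own other strand, lay at 0 of 27, which allows a share of up to 11.1%, against 3.35% of all optimal summits. CGCGCG, also its own other strand, lay at rps-13 alone, against 5.73% of all optimal summits. TTACA lay at 8 (29.6%), against 12.1% of all optimal summits and 21% below the threshold. TATAAA lay at rps-8 alone, against 5.81% of all optimal summits. A match shows only that the letters are present.

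In the 250 bases before to 50 bases after the gene start, the promoters of the 31 rps genes were searched for the same motifs on both strands. Most bound summits lie farther upstream than this stretch, at a median of 313 bp, so its shares do not describe the DNA at the summits. ACGCAG lay in 12.9% of them, against 8.24% of all promoters of the same length, and GAGAGA in 12.9%, against 21.8%. CGCGCG lay in 6.45%, against 2.96%, and ACATGT in 6.45%, against 8.27%. TTACA lay in 54.8%, against 50.8%, and TATAAA in 29.0%, against 38.0%. TTTCAG, the form of the splice acceptor at which worm transcripts are cis- or trans-spliced, lay in 61.3%, against 51.7%. These matches may be on either strand, so the share is not that of promoters with an acceptor sequence on the strand of the gene. At the summits TTTCAG was found at rps-18 and rps-23 (7.41%), against 7.2% of all optimal summits.

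Peak scores within the optimal list place the bound rps genes above its middle. Their median score was 229, against 215 for the bound rpl genes and 149 for all bound protein-coding genes. Of the 27, 19 (70.4%) had a summit with a score at or above the median of the list, 131,, against 58.4% of all bound genes. Scores exceeded 500 at 3 genes, lay between 200 and 500 at 12 and were under 200 at 12. The 9 highest-scoring of them, down to a score of 288, had regions narrower than the full width of 410 bp, and the other 18, with scores of 262 or less, had the full width. Of all optimal peaks, 13.9% were narrower than the full width.

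**Figure D1:**
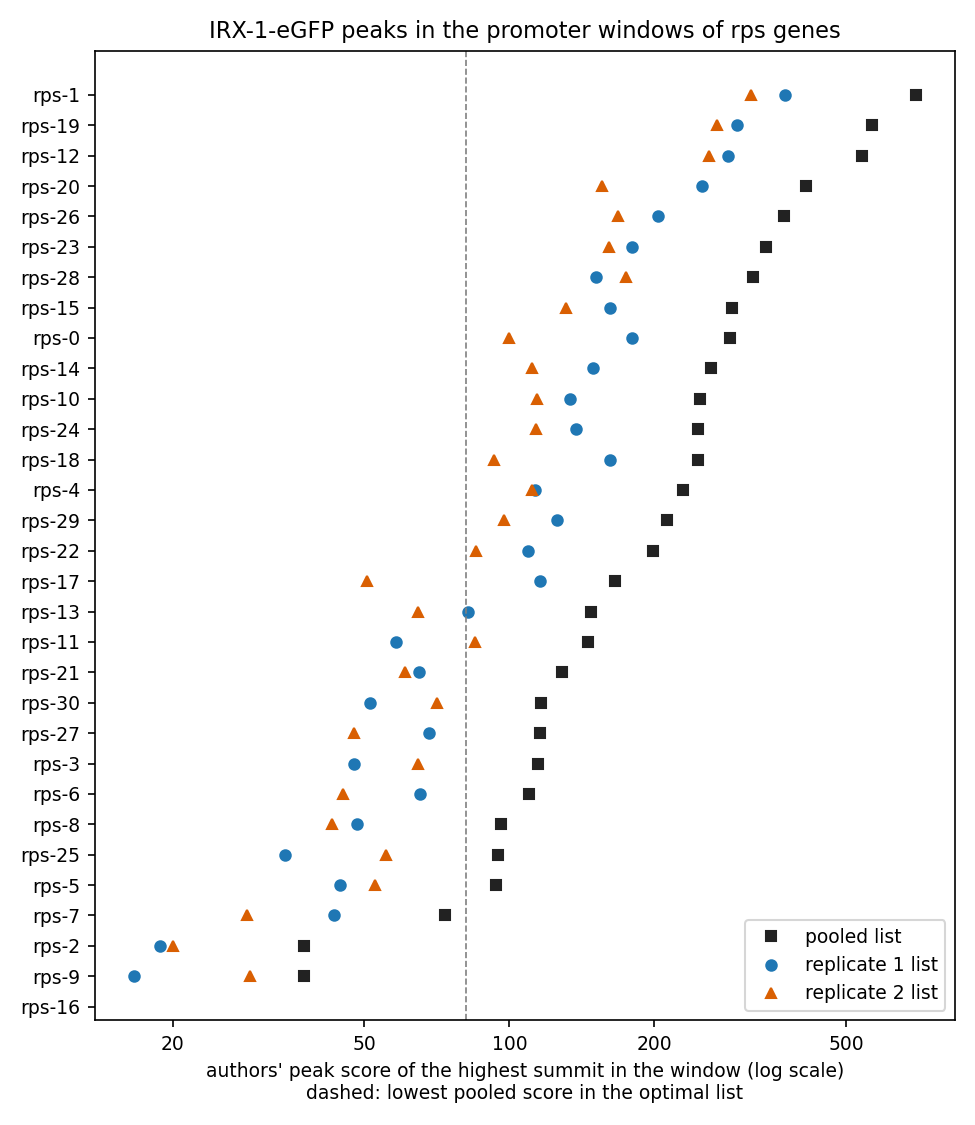
Authors' peak score (log scale) of the highest summit in the promoter window of each rps gene, in the pooled list (squares), the replicate 1 list (circles) and the replicate 2 list (triangles); the dashed line is the lowest pooled score in the optimal list, 81.4, and the score scales of the lists are not comparable. The 27 bound genes have pooled scores from 94.0 to 697, rps-7, rps-2 and rps-9 lie left of the line, and rps-16 has no point.

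Among the proteins of the head of the subunit, 12 of 13 genes were bound. The highest-scoring was rps-19, whose human orthologue is mutated in Diamond-Blackfan anaemia. Its peak on chromosome I spans 9625967 to 9626176 with a pooled score of 567 (rank 73), and the scores were 296 in replicate 1 (rank 80) and 269.6 in replicate 2 (rank 65). The next was rps-12, with a peak on chromosome III from 5679023 to 5679246, a pooled score of 540.4 (rank 83) and scores of 285 in replicate 1 (rank 88) and 259.5 in replicate 2 (rank 67). For rps-20 the peak on chromosome I from 14469235 to 14469441 scored 412 in the pooled list (rank 161). Its ranks were further apart, 134 in replicate 1 (score 251.5) and 244 in replicate 2 (score 155). These 3 peaks are intergenic and lie 281, 160 and 248 bp upstream of their gene starts. Each replicate ranked all 3 in the upper part of its own list.

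The other bound head genes had lower scores. rps-28, whose protein lies beside the exit of the mRNA channel, scored 320.4 in the pooled list, with rank 388 in replicate 1 and 201 in replicate 2. rps-15, whose protein reaches toward the decoding centre, scored 289, with ranks of 345 and 342 in replicates 1 and 2. The pooled scores of rps-10, rps-18 and rps-29 were 249, 246 and 213. rps-17 scored 165, with rank 606 in replicate 1 and 1569 in replicate 2. rps-3, whose protein lines the entry of the mRNA channel, scored 115, with rank 2447 in replicate 1 and 1071 in replicate 2. Replicates 1 and 2 ordered rps-17 and rps-3 differently.

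The lowest scores of all bound members belonged to rps-5, rps-25 and rps-8. rps-5 encodes a head protein at the mRNA exit side. Its peak on chromosome IV from 11111195 to 11111604 scored 94.0 in the pooled list (rank 1958), 44.6 in replicate 1 (rank 2715) and 52.5 in replicate 2 (rank 1481), with the summit 355 bp upstream. rps-25 encodes a head protein needed in yeast and human cells for initiation on certain viral RNAs. Its peak on chromosome IV from 5947746 to 5948155 scored 94.5 in the pooled list (rank 1938), 34.2 in replicate 1 (rank 4590) and 55.4 in replicate 2 (rank 1355), with the summit 346 bp upstream. The body gene rps-8 had a peak on chromosome IV from 7313985 to 7314394, with a pooled score of 96.2 (rank 1887), 48.2 in replicate 1 (rank 2375) and 42.9 in replicate 2 (rank 2053), 330 bp upstream. The lowest score in the optimal list was 81.4, and the closest member below it was rps-7 at 73.5.

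Among the proteins of the body and platform, 15 of 18 genes were bound. rps-1, a platform protein near the mRNA exit, had the highest score of all 31 members. Its peak on chromosome III from 4475546 to 4475773 scored 697 in the pooled list (rank 36), 373 in replicate 1 (rank 41) and 317 in replicate 2 (rank 38). The summit lies 274 bp upstream of rps-1, inside the non-coding RNA genes F56F3.10 and F56F3.11. rps-26, whose protein contacts the mRNA upstream of the start codon in mammalian ribosomes, had a peak on chromosome I from 14759439 to 14759589. It scored 372 in the pooled list (rank 213), 204 in replicate 1 (rank 211) and 168 in replicate 2 (rank 212). rps-23, a protein of the decoding centre, had a peak on chromosome IV from 12391250 to 12391406 that scored 341 in the pooled list (rank 253), 179.7 in replicate 1 (rank 285) and 161 in replicate 2 (rank 232). The rank of each of these 3 peaks was similar in both replicates.

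Lower scores in the body and platform ran down to 96.2 at rps-8. rps-0, the worm orthologue of the laminin receptor protein RPSA, scored 288 in the pooled list, with rank 284 in replicate 1 and 559 in replicate 2. The platform gene rps-14 scored 262, with ranks of 399 and 466 in replicates 1 and 2. rps-24, rps-4 and rps-22 scored 246, 229 and 199. rps-13, rps-11, rps-21, rps-30 and rps-27 scored 148, 145, 129, 116 and 116. rps-6, whose product is the substrate of ribosomal protein S6 kinase, scored 110.1, with rank 1467 in replicate 1 and 1893 in replicate 2. All of these peaks lay in the top 2445 regions of each replicate.

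Each of the 27 peaks was overlapped by a region of both complete replicate lists, as were 99.9% of all 2445 optimal peaks. Among the top 2445 regions of both replicates, 24 of the 27 peaks (88.9%) were overlapped, against 75.3% of all optimal peaks. The optimal list was itself called on the pooled replicates. In the complete replicate lists, 30 of 31 rps genes (96.8%) had a summit in replicate 1, against 39.4% of all genes, and 30 (96.8%) in replicate 2, against 35.3% of all genes. In the top 2445 regions of each replicate, as many as the optimal list holds, 24 rps genes (77.4%) had a summit in replicate 1, against 9.31% of all genes, and 27 (87.1%) in replicate 2, against 9.24% of all genes. Of the 27 bound genes, those without a summit among the top regions of replicate 1 were rps-3, rps-5 and rps-25. Over both replicates the share was 82.3 ± 6.84% of rps genes and 9.27 ± 0.0496% of all protein-coding genes (SD, n = 2). The rank correlation of the replicate scores over the 27 peaks was 0.862 by Spearman's rho, a description of peaks that come from the same libraries. Replicate summits differed from the optimal summit by a median of 8 bp in replicate 1 and 7 bp in replicate 2, and by 99 bp at most.

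The large subunit and mitochondrial genes give a scale for these shares. Of the 47 rpl genes, 32 were bound (68.1%, interval 53.8 to 79.6%), so the intervals of the rps and rpl genes overlap. In the replicates' own top regions the share was 72.3 ± 0% of rpl genes (SD, n = 2). Of the 29 mrps genes, which encode small subunit proteins of the mitochondrial ribosome, 6 were bound (20.7%, interval 9.85 to 38.4%). The bound ones were mrps-35 (score 477), mrps-7 (333), mrps-16 (113), mrps-25 (105), mrps-18A (95.3) and mrps-28 (83.3). In the pooled list, which holds regions down to a score of 26.5, 30 rps genes had a summit (96.8%), against 38.1% of all genes. Of the genes with any pooled summit, the optimal threshold kept 27 of 30 rps genes (90.0%), 76.2% of rpl genes and 25.2% of all genes. No test of these differences was made, because the genes are not replicates of a condition.

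**Figure D2:**
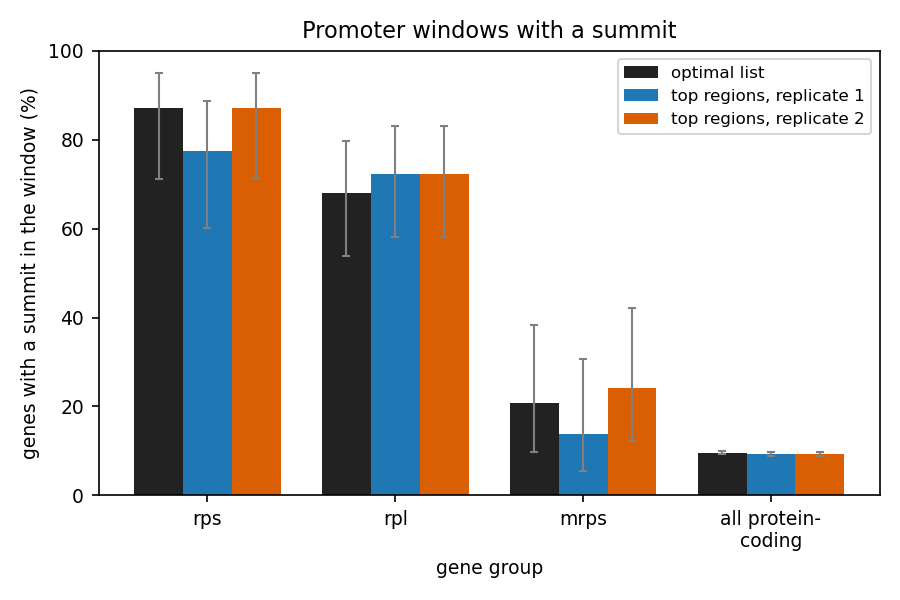
Share of genes with a summit between 1000 bp upstream and 200 bp downstream of the start, in percent, for rps, rpl, mrps and all protein-coding genes, in the optimal list and in the top 2445 regions of each replicate; error bars are 95% Wilson intervals, which cover counting error only. The rps bars stand at 87.1, 77.4 and 87.1%, and those of all protein-coding genes at 9.6, 9.31 and 9.24%.

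The summits lay upstream of the rps genes, in a narrow range of distances. The median distance was 313 bp upstream, with quartiles of 265.5 and 350.5 bp, and 19 of the 27 lay between 200 and 400 bp upstream. For all bound protein-coding genes the median was 239 bp upstream, with quartiles of 133 and 413 bp. The rps distances ranged from 121 bp at rps-22 to 609 bp at rps-27, and 24 lay within 500 bp. Those beyond were rps-18 (554 bp), rps-29 (529 bp) and rps-27. Downstream of the start there were 0 highest summits. rps-29 was the one member with a second optimal summit, at 295 bp upstream with a score of 115.

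**Figure D3:**
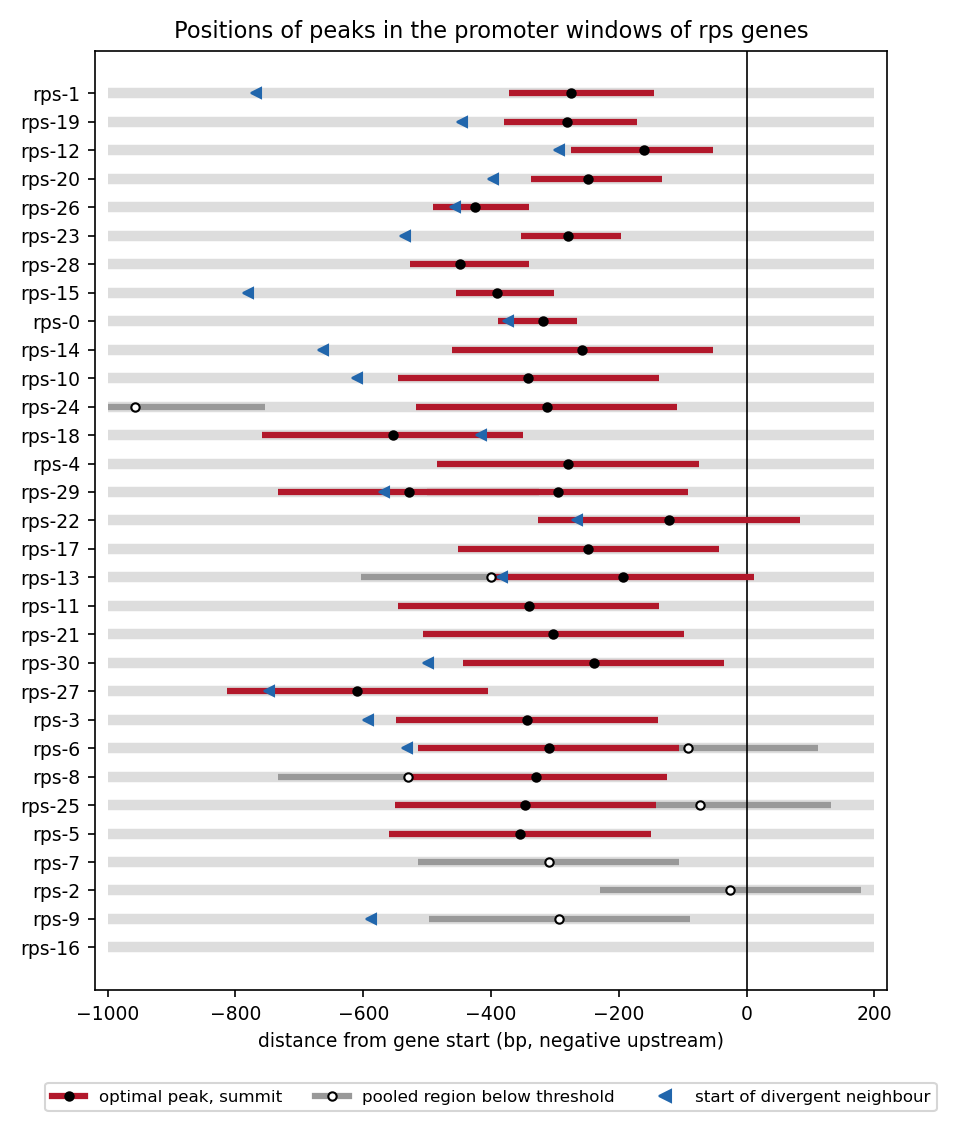
Positions of pooled regions in the promoter window of each rps gene, as distance from the gene start in bp (negative upstream); red bars are optimal peaks with filled summits, grey bars regions below the threshold with open summits, and triangles mark starts of divergent protein-coding neighbours less than 1000 bp away. Most red summits line up between 200 and 400 bp upstream. Those outside this range all belong to genes with a divergent upstream neighbour, which at rps-28 lies beyond the window.

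At 19 of the 27 genes the summit also lay in the promoter window of another protein-coding gene, so it cannot be assigned to one of the pair from its position. This share, and those by neighbour that follow, were not computed over all protein-coding genes. They therefore cannot be read as particular to the rps genes. Of the 31 members, 22 have a divergent upstream neighbour, and 21 of these were bound. The other 9 have a neighbour on the same strand, and 6 of these were bound. At 18 of the 21 bound divergent pairs the summit lay in both windows, and at 14 of those 18 the neighbour's start was nearer. The summit of rps-26 lay 425 bp upstream of rps-26 and 32 bp upstream of tmem-107, that of rps-29 lay 38 bp upstream of snt-2, and that of rps-0 lay 55 bp upstream of rbg-3. The summit of rps-18 lay 139 bp inside sec-61.A, which encodes a translocon subunit of the endoplasmic reticulum, in its 5′ UTR. The summit of rps-1 lay nearer to rps-1 than to ifet-1, which encodes a binding partner of the cap-binding factor and lay 494 bp away. No bound gene with a same-strand neighbour shared its summit: these 6 are rps-4, rps-8, rps-11, rps-17, rps-21 and rps-25, with scores from 94.5 to 229. Their summits lay 248 to 346 bp upstream.

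The remaining shared summits involve genes of varied function. The partners were hsr-9 (rps-19), ska-3 (rps-12), ekl-4 (rps-20), dpm-3 (rps-23), F36A2.9 (rps-15), nfx-1 (rps-13), polh-1 (rps-22), picd-1 (rps-27), sna-3 (rps-3) and usp-3 (rps-6). dpm-3 is named for a subunit of dolichol phosphate mannose synthase, and polh-1 for DNA polymerase eta. The summit of rps-28 also lay 868 bp upstream of Y41D4B.4. In 3 cases the partner was a large subunit gene: rps-14 with rpl-36 (406 bp upstream of rpl-36), rps-10 with rpl-24.1 (268 bp upstream of rpl-24.1) and rps-30 with rpl-39 (260 bp upstream of rpl-39). The windows of ndab-2 and C26F1.3 held the summits of rps-14 and rps-30 too.

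Non-coding genes start within 200 bp of the summit at 8 of the 27 bound genes. The same share was not computed over all optimal summits, so the count cannot be read as particular to the rps genes. They are B0393.12 at rps-0, F56F3.10 and F56F3.11 at rps-1, Y71A12B.30 and Y71A12B.31 at rps-6, and D1007.22 and the piRNA gene 21ur-11631 at rps-10. Those at the other 4 are C16A3.15 at rps-13, the piRNA genes 21ur-10581 and 21ur-7304 at rps-21, the snoRNA gene F39B2.14 at rps-26, and C26F1.13 and C26F1.14 at rps-30. By annotation, 22 of the 27 summits are intergenic, 4 lie in a non-coding gene and 1 in a 5′ UTR. Of all optimal summits 65.8% lie outside genes of every type.

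The space upstream of the rps genes was shorter at the median than that of all genes. The median gap to the next protein-coding gene was 532 bp for rps genes, 589 bp for rpl genes and 937 bp for all protein-coding genes. For bound genes the median gap was 533 bp among rps genes and 596 bp among all protein-coding genes. The 4 unbound rps genes had a median gap of 417 bp. By chromosome, 7 of 8 rps genes were bound on chromosome I, 9 of 9 on III, 9 of 10 on IV, 2 of 3 on V and 0 of 1 on II, and none is on X. Among all protein-coding genes the bound share was 13.4% on I, 14.6% on III, 9.05% on IV, 6.81% on V, 8.61% on II and 7.69% on X.

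The 4 unbound members differ among themselves. rps-7, a body gene on chromosome I, came closest to the threshold. Its pooled region from 10330365 to 10330774 scored 73.5 (rank 2874), with 43.2 in replicate 1 (rank 2864) and 28.5 in replicate 2 (rank 4517). The pooled summit lies 309 bp upstream, near the median of the bound members. Its window also holds the words TCTCGCAGCG, TGGGTCTCGC and AAACGAGTGT.

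rps-2 and rps-9 had low regions. rps-2 encodes a protein at the mRNA entry and lies on chromosome IV. Its pooled region from 7926212 to 7926621 scored 37.5 (rank 12961), with 18.8 in replicate 1 (rank 20203) and 20.1 in replicate 2 (rank 11174), and the pooled summit lies 26 bp upstream. rps-9, also at the mRNA entry, is the one member on chromosome II. Its pooled region from 11126450 to 11126859 scored 37.4 (rank 13024), with 16.6 in replicate 1 (rank 26070) and 28.9 in replicate 2 (rank 4385). The pooled summit of rps-9 lies 293 bp upstream of rps-9 and 295 bp upstream of the divergent lsm-1, whose product acts in mRNA decay, and was farther from the replicate 1 summit (180 bp upstream) than from that of replicate 2 (317 bp).

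The rps-9 sequence at the pooled summit, chrII:11126605-11126705 on the - strand, is shown to set beside those of the bound genes. It holds none of the 7 shared words.
rps-9: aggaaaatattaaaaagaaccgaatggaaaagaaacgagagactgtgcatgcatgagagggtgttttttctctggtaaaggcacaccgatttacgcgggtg

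rps-16 had no summit in its window in any of the 4 lists. Its protein reaches toward the transfer RNA in the P site. The gene lies on chromosome V from 15000018 to 15000541 on the - strand, 109 bp downstream of fib-1 on the same strand. fib-1 encodes fibrillarin, the methyltransferase of nucleolar small RNA particles, and was itself bound. Its peak, from 15002108 to 15002517, scored 289.8 (rank 348) with a summit 90 bp upstream of fib-1. That summit is 1772 bp upstream of rps-16 and falls inside a window extended to 2000 bp.

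Related genes were read from lists of ribosome-associated functions. Of 6 genes for other ribosomal components, 3 were bound: rack-1, a scaffold on the head (score 92.0), ubl-1, a ubiquitin-like fusion protein whose ribosomal part belongs to the small subunit (152), and ubq-2, a ubiquitin fusion protein whose ribosomal part belongs to the large subunit (265). Their summits lay 219, 203 and 450 bp upstream. The stalk genes rla-0, rla-1 and rla-2, whose products belong to the large subunit, were unbound. Of 22 matched genes for small subunit biogenesis and the nucleolus, 11 were bound (50%). The highest scores belonged to fib-1, ruvb-2 (272), rbd-1 (271) and nol-58 (244), and the others were pro-1, nol-56, nol-14, lpd-6, lpd-7, nucl-1 and nol-10. Of 9 matched genes for RNA polymerase I and for kinase signalling to ribosomal proteins, 1 was bound, rheb-1, a small GTPase upstream of TOR kinase (score 146). These shares stand beside 9.6% for all protein-coding genes and 87.1% for the rps genes.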

How the data were processed

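IRX-1-eGFP ChIP-seq was made from 2 biological replicates of 1 group. The authors deposited peak lists on ce11: 1 per replicate, 1 from pooled alignments and an optimal list thresholded on the irreproducible discovery rate, per the file headers. The deposited values are a peak score per region, with no stated formula, and the summit as an offset in bases. The caller, aligner and cutoff were not given in the sources used here, and no read totals were analysed, so depth is unknown. The ce10 lists were not used, and no coordinate was converted. A control file was part of the authors' processing, per the notes, and was not analysed here.

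Summits were set against Ensembl release 115 gene starts with Python 3.11.15, pandas 2.3.3 and scipy 1.17.1, 1-based. The highest-scoring summit in a window stands for the gene, and a summit counts for every window that holds it. Scores of genes were compared within a list only. Ranks, and the rank correlation of scores, were also set side by side between the replicates. The SD of the replicates' median scores spans both replicate lists. Wilson intervals (95%) cover counting error. The window assignment was tested on simulated data. Members and lists were chosen with earlier results of these data known. Every member was named. Full values were given for the 6 highest and 3 lowest bound genes and all unbound ones. Other bound genes received pooled scores. Alternatives changed the window, the start, the overlap rule, the peak list and the replicate used. Of the related genes, rrbs-1 and tif-IA matched no symbol.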

Additional observations from a re-analysis of the deposited data

How the results depend on the processing

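Of 41 alternative values for 7 results, 29 stayed within range of the reported value and 12 moved. The range was 1.5 times for a count and 1 SD of the replicates' medians otherwise, which was 26.6 for the score and 2.83 bp for the distance. The score SD is between 2 replicate lists with unlike scales, so it does not measure a spread of the pooled median. The tally is no measure of robustness. Counts of rps and rpl genes could not rise by 1.5 times, because too few of these genes were unbound. The median score could only rise or stay when lower-scoring peaks were dropped. Counting a summit only for the nearest protein-coding start left 13 rps genes (41.9%), 20 rpl genes (42.6%) and 6.83% of all protein-coding genes bound, with a median rps score of 165 and a median position of -303 bp. Keeping only the 1222 highest-scoring optimal peaks left 1118 protein-coding genes, a median rps score of 262, a median position of -281 bp and 2 rps summits with GAGAGA. A window of 500 bp upstream to 100 bp downstream gave a median of -303 bp and lost rps-18 and rps-27. The pooled list counted 7614 protein-coding genes. GAGAGA lay at 7 summits within 100 bp and 0 within 25 bp. The shares over all optimal summits at these widths, and over the 1222 highest-scoring peaks, were not computed. These GAGAGA counts therefore cannot be set against a background. For a replicate left out, the top 2445 regions of the other replicate's own list were used, and no optimal list was made anew. These are the values given above for the top regions. They held 24 to 27 rps genes, 34 rpl genes in both cases and 1845 to 1859 of all genes. With replicate 1 alone, rps-3, rps-5 and rps-25 were not bound. No paired analysis was possible because there is 1 group and no comparison between groups.

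Depth is unknown, so a missing summit, as at rps-16, is not evidence of no binding, and no interval covers the spread between animals. Cell types are mixed in whole larvae.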
